A study of Arabidopsis thaliana with 124 samples.

Results

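ZAT6 is a zinc-finger transcription factor of Arabidopsis thaliana, and its binding to the genome was mapped by ChIP-seq with and without abscisic acid (ABA). ABA is the plant hormone of drought, salt stress and seed dormancy. The ZAT6 data are 4 of the 124 libraries of the series, which tagged 21 transcription factors, and they were deposited as 2 of its 42 peak lists. These 2 lists hold 16658 of 326698 peaks, of which 11512 belong to ABA and 5146 to the ethanol mock (EtOH). A peak was called shared where it overlapped a peak of the other ZAT6 list by at least 1 bp, and otherwise ABA-only or EtOH-only.

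Whole Col-0 seedlings carrying ZAT6 tagged with YPet, a yellow fluorescent protein, were grown in liquid culture in the dark for 3 days. They then received 10 µM ABA for 4 h, or ethanol for the same time as a mock, with 2 libraries per treatment. The tag was added by recombineering, which inserts it into a large cloned piece of the gene's own genomic region, and chromatin was precipitated with a rabbit antibody against GFP. The control of the series is untagged Col-0 chromatin precipitated in the same way from 2 libraries, both labelled as ABA-treated. No label says whether they also served the EtOH lists. The authors pooled the 2 libraries of a treatment into 1 list, so no spread between replicates can be computed and no difference between ABA and EtOH was tested. Read depth is unknown, and its part in the length of each list was not tested.

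ZAT6 belongs to the C2H2 zinc-finger proteins that carry an EAR motif, a short stretch that recruits co-repressors of the TOPLESS family. It is known for roles in root growth and phosphate balance, cadmium tolerance through glutathione, salicylic acid defence, and tolerance of cold, salt and drought. In the core ABA pathway, hormone-bound PYR/PYL receptors inhibit clade A PP2C phosphatases, which frees SnRK2 kinases to phosphorylate factors such as the ABFs. ABA also acts through a slower kinase cascade that runs from MAPKKK17 and MAPKKK18 through MKK3 to MPK1, MPK2, MPK7 and MPK14.

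By an overlap of at least 1 bp, nearly every peak of the EtOH list met the ABA list, while most peaks of the ABA list met no EtOH peak. In the ABA list 4643 peaks (40.3%, 95% Wilson interval 39.4 to 41.2%) were shared and 6869 (59.7%, 58.8 to 60.6%) were ABA-only. In the EtOH list 5042 peaks (98.0%, 97.6 to 98.3%) were shared and 104 (2.02%, 1.67 to 2.44%) were EtOH-only. These intervals, like all others below, cover counting error only. The ABA-only share lay between 59.3% and 60.0% on each of the 5 chromosomes. The split depends on the overlap rule and on the unequal length of the lists. With a reciprocal overlap of 50%, 69.7% of EtOH peaks and 31.2% of ABA peaks were shared. With summits within 200 bp these shares were 80.9% and 36.2%. With the ABA list limited to its 5146 strongest peaks, 72.2% of ABA peaks and 80.5% of EtOH peaks had a partner.

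The shared peaks lay close together. In 4087 pairs in which an ABA peak and an EtOH peak met no other peak, the summits were a median of 27 bp apart (quartiles 12.5 and 51 bp), and 91.2% lay within 200 bp of each other. The ABA peak was the wider in 3210 of these pairs (78.5%), with median widths of 1245 bp under ABA and 929 bp under EtOH. In addition, 420 ABA peaks met more than 1 EtOH peak, and a single ABA peak met up to 6. Just inside the rule stood 3 pairs that overlapped by at most 50 bp, the smallest overlap being 12 bp. Just outside it stood 2 ABA-only peaks and 1 EtOH-only peak within 50 bp of the other list, the smallest gap of an ABA-only peak being 8 bp. Most ABA-only peaks were far from any mock peak, with a median gap of 7248 bp, and 712 of 6869 had an EtOH peak within 1000 bp.

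Within each list the shared peaks were the stronger ones. The authors' −log10 p, a score of how far a peak exceeds its background, had a median of 61.8 for shared peaks (quartiles 47.6 and 74.3) and 28.9 for ABA-only peaks (21.4 and 41.0) in the ABA list. The authors' fold enrichment had medians of 2.94 for shared and 2.24 for ABA-only peaks, and widths had medians of 1329 bp and 845 bp in the same order. In the EtOH list the median −log10 p was 28.4 for shared peaks and 18.9 for EtOH-only peaks, close to the lists' threshold of 16. These values describe ranks within a list. Classes and cuts below use the same −log10 p limits in both lists, which need not mean the same strength in each.

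**Figure D1:**
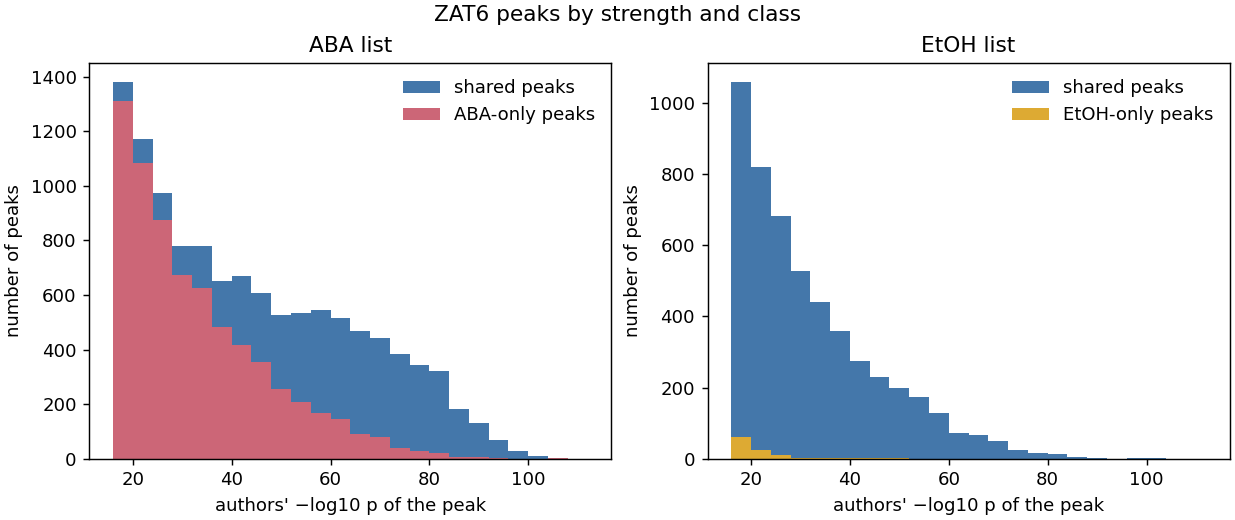
Number of ZAT6 peaks (vertical axis) by the authors' −log10 p (horizontal axis, steps of 4) in the ABA list (left) and the EtOH list (right), with the classes stacked. ABA-only peaks crowd toward the threshold of 16 and shared peaks make up most of the upper range, with medians of 61.8 for shared and 28.9 for ABA-only peaks.

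The share of ABA peaks that were shared climbed steadily with strength. It was 5.07% of 1381 peaks with a −log10 p of 16 to 20, then 7.59%, 11.9%, 30.7% and 63.2% in the next classes, and 88.6% of the 2377 peaks at 64 or above (2106 peaks). The EtOH list had no such range, with 94.3% shared in its weakest class and all 179 peaks of its strongest class. ABA-only peaks were nevertheless found at the very top, since the strongest of all 11512 ABA peaks was ABA-only. They made up 2 of the top 100, 50 of the top 1000 and 1345 of the top 5000 ABA peaks. The strongest EtOH-only peak was at rank 619 of its list.

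**Figure D2:**
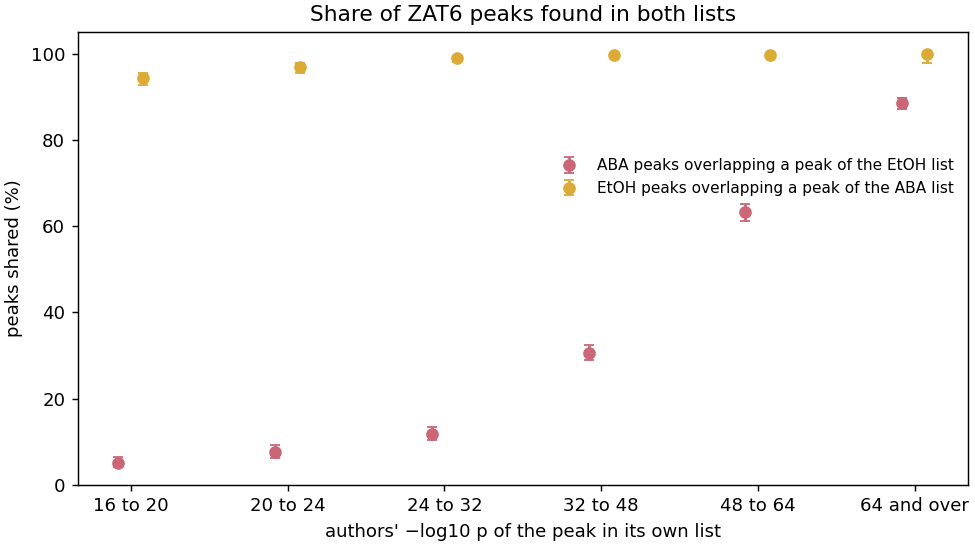
Percent of ZAT6 peaks that overlapped a peak of the other list (vertical axis) by class of the authors' −log10 p in the peak's own list (horizontal axis), for the ABA list and the EtOH list, with 95% Wilson intervals as bars. The ABA points run from 5.07% to 88.6%, while no EtOH point is under 94.3%.

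The tagged gene itself checks the labels. ZAT6 (AT5G04340) lay under a plateau in both ZAT6 lists that spanned 16 protein-coding genes. It ran over chr5:1201277-1252110 (TAIR10; 50834 bp, −log10 p 88.03, rank 239) under ABA, and over chr5:1201252-1252143 (50892 bp, 101.74, rank 1) under EtOH. The edges differed by 25 and 33 bp. In 28 lists of other factors a peak also lay over the gene, and these were 649 to 3996 bp wide. The second widest peaks of the ZAT6 lists were 13242 bp under ABA and 8473 bp under EtOH. A cloned genomic piece carried by the line and binding of ZAT6 at its own gene cannot be told apart here, so no binding of ZAT6 to ZAT6 is reported. An adjoining shared peak at KTF1, chr5:1192645-1200464 under ABA with a −log10 p of 76.72, was met by no other factor in either treatment. It lies next to the plateau, so a cloned piece and binding cannot be told apart there either.

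Most ZAT6 summits lay close to genes. Summits inside a protein-coding gene made up 31.7% of ABA-only peaks (30.6 to 32.8%) and 27.2% of shared ABA peaks (25.9 to 28.5%). A further 54.8% of ABA-only and 52.5% of shared peaks were outside genes but within 1000 bp of one, a difference of 2.27 percentage points (0.417 to 4.13), which was 0.330 points where shared peaks had to overlap by 50% of both. Summits more than 2000 bp from any gene were 5.28% of ABA-only and 8.10% of shared peaks. Outside genes, the median distance to the nearest gene was 221 bp for ABA-only and 429 bp for shared peaks. Gene strand was not used here, so upstream and downstream sides are not separated.

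Each summit was assigned to its closest protein-coding gene, up to 2000 bp away. Of 27444 genes, 9000 (32.8%) had a ZAT6 summit under ABA and 4034 (14.7%) under EtOH. Both lists had a summit at 3709 genes (13.5%), ABA alone at 5291 (19.3%) and EtOH alone at 325 (1.18%). At 269 of those 325 genes every EtOH peak was itself shared, and the ABA summit of the same region had been given to another gene or to none. The lists below are therefore counted by summits, while each peak is called shared or ABA-only by overlap. By overlap 5121 genes (18.7%) had ABA-only peaks and no other ZAT6 peak, 4134 had a shared peak and 56 had EtOH-only peaks alone. Of the genes with a shared peak, 751 also had an ABA-only peak. A single ABA peak was found at 7408 genes, 2 at 1422 genes and 3 or 4 at 170 genes. With both lists at 5146 peaks, 1282 genes had a summit under ABA alone and 976 under EtOH alone.

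The 10 strongest ABA-only peaks included both entry kinases of the MAP kinase branch of ABA signalling. The strongest ZAT6 peak under ABA, at chr1:1467347-1471468, had its summit 276 bp from MAPKKK18 with a −log10 p of 107.42 and a fold enrichment of 4.00. The nearest EtOH peak was 32491 bp away. MAPKKK17 had the peak chr2:13798248-13802857, with a −log10 p of 91.59, a summit 363 bp from the gene and a gap of 17023 bp to the EtOH list. Both kinase genes thus had a strong ABA peak and no mock peak nearby. RUP2, a repressor of UV-B light signalling, had an ABA-only peak of 89.81 at chr5:8005879-8007597. AtS40-3, a regulator of leaf senescence, had one of 85.9. MYB112, a factor that promotes anthocyanin formation under salt and high light, had one of 85.27 at chr1:17701157-17705880, which was 77617 bp from the nearest EtOH peak. The peak of 95.66 at AT1G69480 was 3210 bp from the mock list, and that of 88.81 at AT2G18180 was 3391 bp from it. The remaining members were AT2G39260 (89.68), AT3G20710 (86.64) and a peak of 91.43 at chr2:8917412-8918506 whose nearest gene, MAN2, was 2758 bp away.

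The strongest shared peaks marked other genes. In the ABA list they ran from 106.81 at AT1G66290 to 100.9 at WAKL1, a gene of the wall-associated receptor kinase-like family. ZIF1, a vacuolar transporter of zinc tolerance, had a −log10 p of 103.59 in the ABA list and 84.92 in the EtOH list (chr5:4430878-4432744 under ABA). NAC1, a NAC factor of auxin-dependent lateral root growth, had 103.19 in the ABA list and 44.88 in the EtOH list. AT3G19035 had 103.1 and 88.2 in the same order, and PDE345, an aldolase gene, 102.5 and 46.82. The other members were AT1G73066, AT4G10820, AT4G01023 and AT4G00695, at 101.99 to 103.38 in the ABA list and 39.55 to 68.23 in the EtOH list. After the tagged region, the strongest EtOH peaks lay at SDR3, with 99.3 in the ABA list and 97.39 in the EtOH list, and at ERF6, an ethylene response factor of oxidative stress, with 99.98 and 96.89. All of these sites were in both lists.

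Among the 104 EtOH-only peaks the 5 strongest, by −log10 p in the EtOH list, lay at AT1G29435 (50.48), AT2G42300 (47.28), SAUR19 (41.78), AT2G19210 (36.6) and AT1G11740 (33.51). SAUR19 is a small auxin-up RNA gene that promotes cell expansion, and its peak chr5:5963357-5964182 was 5930 bp from the nearest ABA peak. For the class as a whole the median gap to the ABA list was 1602.5 bp, and 43 of 104 peaks had an ABA peak within 1000 bp.

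Genes of the ABA pathway are described next by role, followed by other lists. Each list is set against the shares of all genes given above. These were 32.8% under ABA, 14.7% under EtOH, and 18.7% with ABA-only peaks and no other. A value in parentheses after a gene is the authors' −log10 p of its peak in the ABA list. Of 14 ABA receptor genes, 8 had a summit under ABA and 6 under EtOH. PYL5 had the strongest ABA peak of the list (82.68), and it was shared, as were those of PYL8 (72.89), PYR1 (57.0) and PYL9 (55.77). Only PYL13 (41.27) and PYL2 (16.21) had ABA-only peaks and no other. PYL6 had an ABA-only peak of 22.69 and, elsewhere at the gene, an EtOH-only peak of 17.9 in the EtOH list. It was the sole member of the 18 lists with an EtOH-only peak.

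Of 9 clade A PP2C genes, 7 had a summit under ABA and 5 under EtOH. With the gene limited to 1000 bp from the summit, 4 had a summit under ABA and 5 under EtOH. Among all genes this limit gave 30.7% and 13.3%. Counting every gene touched or within 1000 bp of a peak, 9 PP2C genes had an ABA peak and 5 an EtOH peak. The shares of all genes by this rule were 49.7% and 21.5%. In 4 of the 9 the peaks were ABA-only and no other was found, namely at HAI2 (79.95), HAI3 (69.8), HAB1 (38.19) and AHG1 (33.85). At HAI2 the peak chr1:2280116-2284705 had its summit 1228 bp from the gene. ABI1, ABI2, HAB2, PP2CA and HAI1 had shared peaks. At ABI1 and ABI2 the overlapping ABA peaks, of 61.9 and 65.1, had their summits placed elsewhere. Among 10 SnRK2 kinase genes, 7 had a summit under ABA and 4 under EtOH, and 3 had ABA-only peaks alone, of 56.02, 32.21 and 25.19. OST1, the guard-cell kinase listed as SNRK2.6, had none.

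In the MAP kinase list 6 of 9 genes had an ABA summit, 5 of them with ABA-only peaks alone, and none had an EtOH summit. Counting every gene that a peak touched or came within 1000 bp of, 6 genes had an ABA peak and 3 an EtOH peak. By this count all genes stood at 49.7% and 21.5%. The genes with ABA-only peaks alone by summit were the pair at the head of the cascade, MPK3 (38.27), MPK7 (33.76) and MPK2 (24.11). MPK1 had a shared peak of 51.31 whose EtOH summit was placed elsewhere. MKK3, which links the levels of the cascade, had no summit in either list.

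Genes that make, break down and move ABA had 12 of 17 members with a summit under ABA and 6 under EtOH. NCED3, the stress-induced step of ABA synthesis, had a shared peak of 81.39. CYP707A2, an ABA 8'-hydroxylase, had a shared peak of 98.93 and ABA-only peaks besides, the stronger at 61.73. Of the 6 members with ABA-only peaks alone, AAO3 (33.09), NCED5 (31.65) and the exporter ABCG25 (28.34) were strongest. All 6 lay below the median of 39.66 of the 10773 ABA peaks placed at genes.

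Of 21 protective genes of dehydration and ABA response, 14 had a summit under ABA and 3 under EtOH, close to the 14.7% of all genes for EtOH. In 10 members there were ABA-only peaks alone. The proline synthesis gene P5CS1 led them with a −log10 p of 79.38 at chr2:16602413-16603760. RD29A, a classic reporter gene of drought and ABA, had 53.49, followed by ERD1 (44.33) and LEA7 (38.34). RAB18, RD20 and RD22 had weak ABA-only peaks of 24.96, 29.6 and 26.58. COR47, ERD14, GOLS2 and LEA4-5 had shared peaks. All 7 genes of the CBF and DREB list, cold and drought regulators, had ABA summits, and 4 had EtOH summits. CBF1 (92.02), CBF4 (89.85), CBF3 (85.99) and CBF2 (80.52) had shared peaks. DREB2A (62.43), DREB2B (61.96) and ICE1 (40.07) had ABA-only peaks alone.

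ZAT6 peaks were also common at genes of its own family and of the co-repressors it can recruit. Leaving out the tagged gene, 11 of 15 ZAT and AZF zinc-finger genes (73.3%) had an ABA summit and 8 (53.3%) an EtOH summit. All genes stood at 32.8% and 14.7%. Shared peaks were strongest at ZAT11 (92.0), AZF1 (83.42) and ZAT12 (81.38). ABA-only peaks alone were found at AT3G53600 (81.05), AT1G02030 (71.85), ZAT10 (69.04) and ZAT7 (27.64). ZAT10 is a close relative that responds to many abiotic stresses. Of 6 genes of the TOPLESS list all had an ABA summit and 5 an EtOH summit. TPL itself had a shared peak with a −log10 p of 86.64 in the ABA list and 71.96 in the EtOH list, and only SAP18 (32.42) was ABA-only. All 12 JAZ genes, repressors of jasmonate signalling, had an ABA summit and 8 an EtOH summit. JAZ3 (92.96) and JAZ1 (88.88) had shared peaks, whereas JAZ12 (60.23), JAZ5 (30.67), JAZ11 (20.01) and JAZ8 (17.56) had ABA-only peaks alone.

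Lists for processes in which ZAT6 is known to act are given next, again beside 32.8% of all genes under ABA and 14.7% under EtOH. In the phosphate list 11 of 19 genes (57.9%) had an ABA summit and 4 (21.1%) an EtOH summit. The EtOH sites were at the neighbouring root phosphate transporters PHT1;1 (76.58 in the ABA list), PHT1;2 (32.53) and PHT1;3 (20.74), and at PHT1;4 (61.05). Near-identical copies in this family can share reads, so these values are uncertain between its members. PHT1;9 (48.65), PHT1;8 (45.08), PHF1 (33.74) and PHO2 (31.15) were the strongest of 7 genes with ABA-only peaks alone. Of 9 glutathione and metal genes 4 (44.4%) had an ABA summit and 3 (33.3%) an EtOH summit. GSH1, the first enzyme of glutathione synthesis, had a shared peak of 87.65 and an ABA-only peak of 45.75, and the transporter ABCC1 had ABA-only peaks alone (53.31). Of 12 salicylic acid genes 8 had an ABA summit and 3 an EtOH summit. The immune regulators PAD4 (78.05) and EDS1 (64.27) had shared peaks. EDS5 (62.98), PBS3 (32.17), NPR1 (17.99) and CBP60G (17.0) had ABA-only peaks alone, while PR1, PR2 and PR5 had none.

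The flavonoid and anthocyanin list had 8 of 17 genes with a summit under ABA and none under EtOH, and all 8 peaks were ABA-only. Counting every gene touched or within 1000 bp of a peak, 10 genes had an ABA peak and 1 an EtOH peak. The shares of all genes by this rule were 49.7% and 21.5%. The anthocyanin regulator PAP2 was strongest (73.76), followed by DFR (41.04), F3'H (36.54) and MYB12 (35.07). Enzyme genes CHS (22.17), CHI (27.05), LDOX (22.86) and FLS1 (32.96) completed the set. Of 11 genes that make or remove reactive oxygen, 8 had an ABA summit and 5 an EtOH summit. CAT1, RBOHF, RBOHD, RBOHC and CAT3 had shared peaks, and CAT2 (38.59), APX1 (38.36) and CSD1 (27.61) were ABA-only. Of 12 seed genes only ABI3 (43.12, ABA-only) had a summit under ABA, and none had one under EtOH. By every gene touched or within 1000 bp of a peak, 4 seed genes had an ABA peak and none an EtOH peak. The same rule gave 49.7% and 21.5% of all genes. Of 14 light-harvesting genes 4 (28.6%) had an ABA summit and 2 (14.3%) an EtOH summit, close to the shares of all genes, LHCB4.2 (42.34) being ABA-only.

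**Figure D3:**
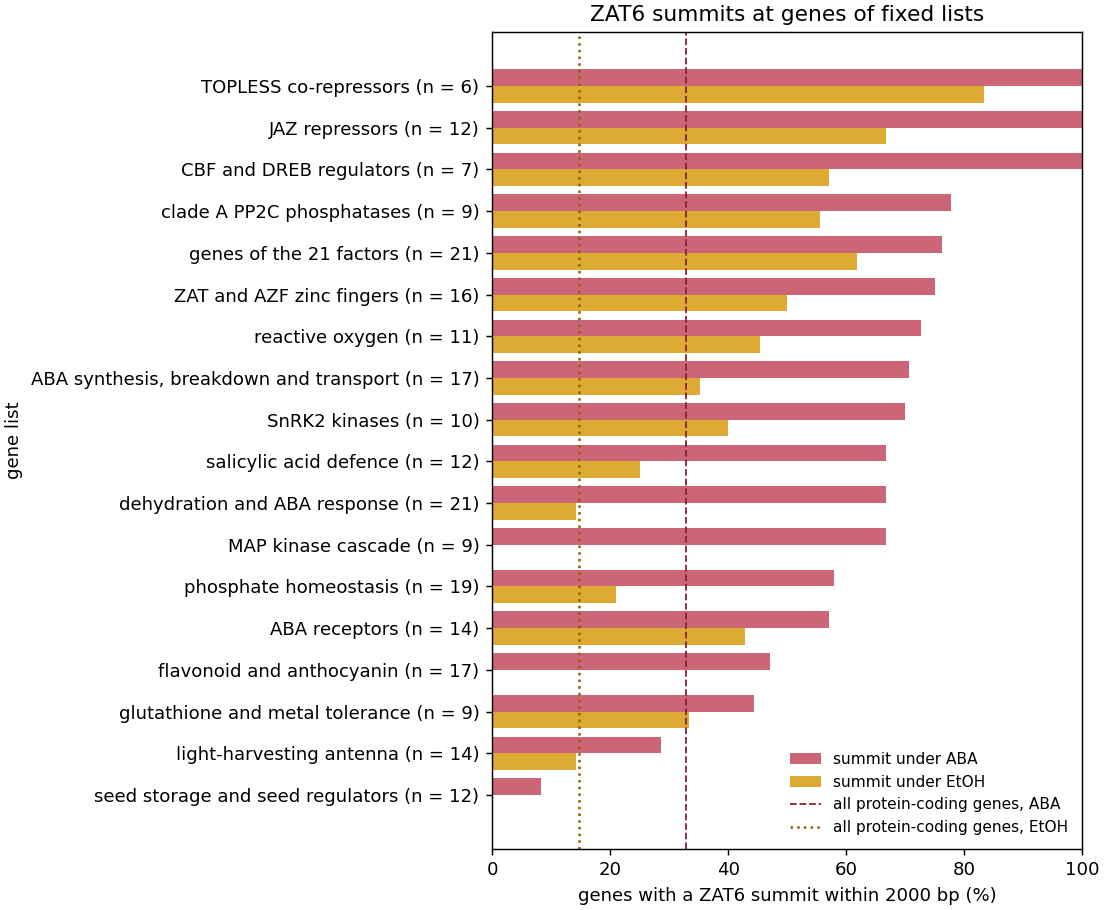
Percent of the genes of each list with a ZAT6 summit within 2000 bp (horizontal axis) under ABA (upper bar) and under EtOH (lower bar), with dashed and dotted lines at the shares of all protein-coding genes, 32.8% under ABA and 14.7% under EtOH. The flavonoid, MAP kinase and seed lists have no EtOH bar, and the seed list has the shortest ABA bar. The zinc-finger list and that of the 21 factors include the tagged gene in their ABA bars.

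Of the genes that encode the other 20 factors, 15 had a ZAT6 summit under ABA and 13 under EtOH. Peaks that were ABA-only and alone were found at HSFA6A (69.23), ABF4 (68.82), DREB2A (62.43), ABF1 (55.58) and NFYC2 (36.29). Shared peaks included those of HB5 (86.75), NFYB2 (83.9), ANAC102 (82.36), ABF3 (81.16), MYB3 (81.11), HB7 (76.95) and ANAC032 (68.62). HB6 (52.38), FBH3 (58.23) and GBF2 (55.27) also had shared peaks. At MYB44, AT5G04760 and HAT22 the shared ABA peaks, of 92.02, 83.31 and 76.11, had summits placed elsewhere. RD26 and GBF3 had no ZAT6 summit in either list, each summit being given to its closest gene only. Counting every gene touched or within 1000 bp of a peak, all 21 factor genes had an ABA peak and 16 an EtOH peak. These counts include the tagged gene. By the same rule the shares of all genes were 49.7% and 21.5%.

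Most ZAT6 sites were also sites of other factors. Overlaps with the other 20 factors are given as a description, because all lists come from the same antibody and may share the untagged control. Regions that any tagged line might yield were not tested. Under ABA, an ABA-only peak met a median of 10 other factors (quartiles 6 and 14) and a shared peak a median of 16 (12 and 17). At least 10 other factors were met by 53.5% of ABA-only peaks (52.3 to 54.7%) and by 85.4% of shared peaks (84.3 to 86.4%). No other factor was met by 155 ABA-only peaks (2.26%, 1.93 to 2.64%) and 33 shared peaks (0.711%, 0.507 to 0.996%). Among peaks of like strength the medians were closer. In the class of 48 to 64 the medians were 14 for ABA-only and 15 for shared peaks, and from 64 upward 16 and 17. In the weakest class they were 7 and 9.5.

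**Figure D4:**
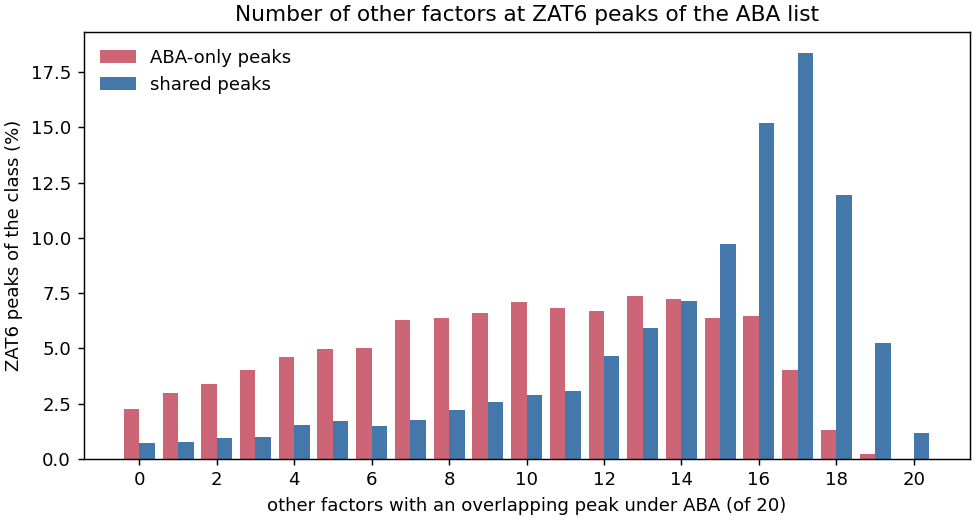
Percent of ABA-only and of shared ZAT6 peaks of the ABA list (vertical axis) by the number of other factors, of 20, whose ABA list overlaps them (horizontal axis). ABA-only peaks spread broadly around their median of 10, and shared peaks gather around a median of 16.

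Many ABA-only ZAT6 sites carried other factors in mock-treated seedlings already. In the EtOH lists of the other 20 factors an ABA-only peak met a median of 6, and a shared peak a median of 12. Only 648 ABA-only peaks (9.43%, 8.76 to 10.1%) met none of these lists. The peak at MAPKKK18 met 19 other factors under ABA and 9 under EtOH, that at MAPKKK17 18 and 15, and that at MYB112 19 and 11. The peak near MAN2 met 14 under ABA and 1 under EtOH, and that at RUP2 met 9 and 2.

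The factors met most often at ABA-only peaks under ABA were NFYB2, a NUCLEAR FACTOR Y subunit (80.1%), the homeodomain-leucine zipper protein HB7 (77.8%), the NAC factor RD26 (76.8%), and the bZIP proteins GBF3 (70.3%) and ABF3 (68.6%). List lengths differ, with 18096 peaks for NFYB2 and 11825 for RD26 under ABA, and their part in these shares was not tested. In the EtOH lists the same ABA-only peaks were met by NFYB2 in 69.4%, GBF3 in 66.8%, ABF3 in 50.6%, RD26 in 36.8% and HB7 in 12.0%. The HB7 list is itself longer under ABA (13565 peaks) than under EtOH (3645 peaks). The overlap with RD26 was large as a share of either list, with 83.2% of all ZAT6 ABA peaks meeting RD26 and 81.2% of RD26 ABA peaks meeting ZAT6. Of the 5273 ABA-only ZAT6 peaks that met RD26 under ABA, 2398 met an RD26 peak under EtOH too. The 104 EtOH-only peaks had another order than ABA-only peaks. In the other factors' ABA lists they were met by AT5G04760, a MYB-related factor, in 58.7%, by HB5 in 61.5% and by RD26 in 17.3%. In the EtOH lists these shares were 76.9%, 71.2% and 29.8%. GBF3 (67.3%), HB6 and HAT22 (66.3% each) and NFYB2 (65.4%) came next after HB5 there. Shared peaks of the EtOH list met AT5G04760 in 86.6%, HB5 in 74.7% and RD26 in 74.9% under EtOH. High overlap with AT5G04760 and HB5 was thus not particular to EtOH-only peaks.

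**Figure D5:**
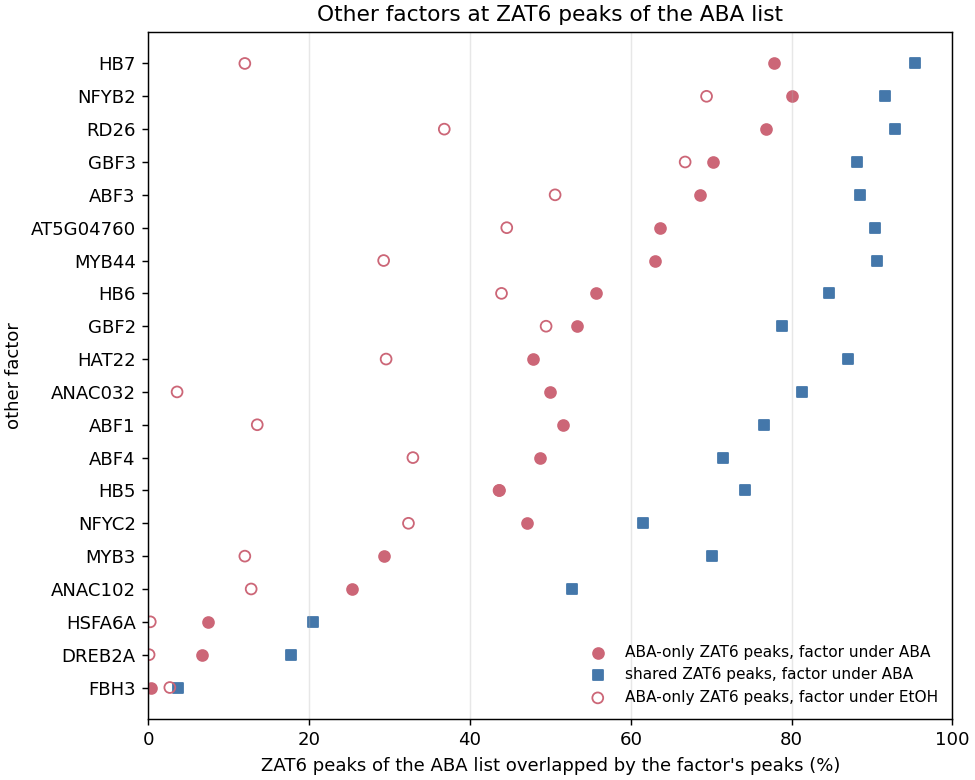
Percent of ZAT6 peaks of the ABA list that overlap a peak of each other factor (horizontal axis; factors down the page by their overlap with all ZAT6 ABA peaks), for ABA-only peaks and shared peaks with the factor's ABA list, and for ABA-only peaks with the factor's EtOH list (open circles). For HB7 the ABA-only points lie at 77.8% under ABA and 12.0% under EtOH, and for GBF3 at 70.3% and 66.8%.

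The ratio of ABA to EtOH peaks of ZAT6, 2.24, was the sixth highest of the 21, whose ratios ranged from 0.179 to 101.1 with a median of 1.45. The share of ABA peaks that were shared, 40.3%, was the 16th highest (median 67.7%), and the share of EtOH peaks that were shared, 98.0%, was the 8th highest (median 96.7%). These ranks compare pooled lists with no replicate error.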

How the data were processed

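The deposited files are narrowPeak lists, 1 for each of 21 factors and 2 treatments. Per the labels, chromatin of tagged seedlings was precipitated with an anti-GFP antibody, and, per the submitters' processing notes, the tools were MACS2 2.0.10 and Bowtie 0.12.7 and the build was TAIR10, with no role given for either tool. The authors pooled the libraries of a group into 1 list. For every peak the authors deposited a −log10 p and a fold enrichment, which is a ratio. Both served to rank and describe the peaks of the same list, never to compare lists. Both ZAT6 lists start at a −log10 p of 16, and the q-value column holds -1 throughout. The summit position was taken as deposited. The files give no read counts, so depth and the precision it sets are unknown. Whether the libraries came from separate cultures is not given.

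Overlaps, nearest genes and Wilson intervals (95%) were computed with Python 3.11.15, numpy 2.4.6, pandas 2.3.3 and scipy 1.17.1, and the overlap and nearest-gene steps were tested on simulated data. Coordinates are 1-based on TAIR10. Gene names and neighbours come from an NCBI gene table of TAIR10.1, used without strand and with no coordinate printed. Moving all ABA summits by 50 bp to either side changed the share inside genes from 29.9% to 30.8% and 31.0%, its lowest value being at no shift. All 236 gene list entries matched the table. Genes that it gives no symbol are named by code. No genome sequence was used, so the planned motif search was not run and no sequence is printed.

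The split, the 18 gene lists and the rules were chosen with earlier results of these data known. The genes named are those at the 10 strongest ABA-only, 10 strongest shared and 5 strongest EtOH-only peaks, up to 4 members of a list with an ABA-only peak and all with an EtOH-only peak, ZAT6 and the genes of the other 20 factors. Further names, among them the strongest EtOH peaks and the shared peaks of list members, were chosen after their values were seen.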

Additional observations from a re-analysis of the deposited data

How the results depend on the processing

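Of the 50 alternative values of the comparisons, 20 were labelled the same as the main value and 30 moved. The labels do not follow the size of a change. The shared part of the EtOH list was labelled moved at 98.4% against 98.0%, while some values labelled the same differed more. Genes with a summit under ABA alone went from 5291 to 7839 when every gene touched or within 1000 bp of a peak counted. They went to 4340 at a −log10 p of at least 32. No alternative value changed direction, but counts, shares and medians of factor numbers cannot do so, and only differences between classes can. Of 108 alternative counts of single gene lists, 84 were labelled the same and 24 moved. With a −log10 p of at least 32 there were 7204 ABA and 2056 EtOH peaks. The shared part of the ABA list was 31.2% with a reciprocal overlap of 50%, 36.2% with summits within 200 bp, 26.8% at 32 or above and 72.2% with lists of equal length. For the EtOH list it was 69.7%, 80.9%, 98.4% and 80.5% in the same order. With the reciprocal overlap, ABA-only peaks were near a gene in 0.330 percentage points more than shared peaks. The median −log10 p of shared minus ABA-only peaks was 32.9, and 29.5 with the reciprocal overlap. That of shared minus EtOH-only peaks was 9.47, against 1.99 with the reciprocal overlap and 3.29 with the summit rule. The same differences in fold enrichment were 0.70, and 0.63 with the reciprocal overlap, for ABA-only peaks, and 0.31, 0.09 and 0.11 for EtOH-only peaks. Genes with a summit under ABA alone were 1282 with lists of equal length. Under EtOH alone they were 95 when every gene touched or within 1000 bp of a peak counted, 127 at 32 or above and 976 with equal lengths, and in both lists 5809 by every gene and 1574 at 32 or above. Members of gene lists with an EtOH summit were 35 at 32 or above. With other factors' summits within 200 bp, ABA-only peaks met a median of 7 and shared peaks of 11, and 4.64% of ABA-only peaks met none. With the other lists at 32 or above these values were 5, 11 and 9.75%. The cause of these shifts was not tested, except that shorter lists and stricter overlap leave fewer peaks by construction.

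No paired analysis was possible because the 2 libraries of each treatment are pooled into 1 list, and for the same reason no replicate was left out. The motif search was not run. Unknown depth limits every count: a site missing from the EtOH list is not shown to be unbound. The control libraries are labelled as ABA-treated only.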

Other observations

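The gene families in this part were chosen after their values were seen, by symbol or synonym in the gene table, and none was tested. Peaks at SAUR genes, the small auxin-up RNAs that promote cell expansion, were frequent among the few EtOH-only peaks. Of 93 EtOH-only peaks placed at a gene, 8 (8.60%) lay at 8 different SAUR genes, against 12 of 6506 placed ABA-only peaks (0.184%) and 19 of 4608 placed shared EtOH peaks (0.412%). They were, with the −log10 p in the EtOH list, SAUR19 (41.78), AT4G34800 (26.12), SAUR20 (25.85), AT2G21210 (22.0), SAUR9 (21.17), AT5G18030 (20.07), AT3G03850 (19.46) and AT3G03830 (17.83). SAUR19, SAUR20 and AT5G18030 are close together on chromosome 5, and near-identical copies in this family can share reads. Among 80 genes named SAUR, 25 (31.2%) had a summit under ABA and 24 (30.0%) under EtOH, against 32.8% and 14.7% of all genes. The name SAUR21 is carried by both AT5G18030 and AT5G01830, so these counts may include a gene outside the family.

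Expansin genes of the EXPA family, which loosen cell walls, had an ABA summit at 8 of 23 members (34.8%), close to the 32.8% of all genes, and no EtOH summit, against 14.7% of all genes. All 8 had ABA-only peaks alone, led by EXPA10 (−log10 p 51.24 in the ABA list), EXPA9 (44.58) and EXPA1 (33.54). From EXPA1 down they lay below the median of 39.66 of ABA peaks placed at genes, where most ABA peaks were ABA-only. Only summits were counted for this family, not every gene that a peak touched or came near. WRKY factors had a summit at 48 of 71 genes (67.6%) under ABA and 37 (52.1%) under EtOH, again beside 32.8% and 14.7% of all genes. WRKY7 had a −log10 p of 96.78 in the ABA list and 78.15 in the EtOH list, and WRKY63 had 85.49 and 86.95. CIPK kinases, which act with calcium sensors, had 21 of 26 (80.8%) under ABA and 18 (69.2%) under EtOH. The most ABA peaks at a gene, 4, were found at 11 genes. At the cytokinin receptor gene WOL and the auxin transport kinase gene PID, 3 of the 4 were ABA-only, and at the homeobox gene BLH4 all 4 were.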
